A study of Mus musculus with 12 samples.

Results

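Macrophage identity genes were followed here as a list of 43 genes that are characteristic of macrophages, or of leukocytes in general, in the mouse. The genes were picked by symbol, not by their counts, and a gene was kept if any library held a count for it. All 43 of 43 were found among the 23329 genes listed and all had a count in at least 1 library, 38 to 43 of them in any 1 library. Emr1 is the older symbol of Adgre1, and Spi1 was found under its older symbol Sfpi1. Of the 43 genes, 39 passed the filter on low counts (above 0.5 CPM, the count scaled to library size, in every library of at least 1 group) and were tested. The other 4, Cd163, Folr2, Gpr34 and Lyz1, are given by their levels only.

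Macrophages are phagocytes that settle in the gut wall before birth, first from the yolk sac and fetal liver and later from blood monocytes. They take up dying cells and microbes through scavenger, Fc and complement receptors, destroy them in lysosomes and with the phagocyte oxidase, and respond to lipopolysaccharide (LPS), a component of the outer membrane of Gram-negative bacteria. PU.1, the product of Spi1, is the transcription factor on which their development depends.

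The libraries came from primary stromal cells of the small intestine of mice on the C57BL6/J background, labelled intestinal myofibroblasts. They were grown from E14.5 embryos or adult mice, and each stage was treated for 6 h with LPS from Escherichia coli O111:B4, at a stated concentration of 10 µg/µl, or with PBS as vehicle. Each of the 4 groups (embryonic PBS, embryonic LPS, adult PBS and adult LPS) held 3 poly(A)-selected, strand-specific libraries. Cultures were used at passages 2 to 3 and were not sorted. Adult intestine was opened and its villi were scraped away, while embryonic intestine was cut into pieces. The epithelium was then removed and the remainder was digested. This difference in preparation went with stage, so that its part in any stage difference cannot be told apart from that of stage. According to the methods each embryonic culture pooled 6 embryos, and the adult cultures came from 3 mice.

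Gene counts ranged from 18850224 to 32672370 per library. The smallest level taken as detected, 3 counts in a library, corresponded to between 0.0896 and 0.144 CPM after TMM scaling, and this floor covers counting error only. LPS and PBS libraries of the same stage and number behaved as a pair and are called culture 1, 2 and 3. Libraries of 2 cultures stood apart for these genes. Embryonic culture 3 held far more of them than the other embryonic cultures under both treatments, and the LPS library of embryonic culture 2 held more of nearly all of them than its PBS library.

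The labelled cell type was checked first. Genes of fibroblasts and myofibroblasts were abundant in all 12 libraries: Col1a1, a collagen I chain, lay between 3537 and 12770 CPM, and Acta2, smooth muscle actin, between 6930 and 14890 CPM. The 4 macrophage markers were also present in all 12 libraries. Emr1, the F4/80 antigen, lay between 0.625 and 224.3 CPM, Cd68, a lysosomal membrane protein of phagocytes, between 1.32 and 147.6 CPM, C1qa, a chain of complement C1q, between 0.768 and 309.8 CPM, and Ptprc, the leukocyte surface phosphatase CD45, between 0.337 and 161.5 CPM.

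The summed level of the 43 genes differed 10.2-fold between the highest and the lowest embryonic PBS library and 9.61-fold between the embryonic LPS libraries. With PBS it was 527.9, 877.6 and 5394 CPM in embryonic cultures 1, 2 and 3, and 302.5, 89.6 and 98.1 CPM in adult cultures 1, 2 and 3. With LPS it was 606.8, 2641 and 5830 CPM in the embryonic cultures and 364.0, 87.7 and 111.6 CPM in the adult cultures. Mertk alone made up 49.5% of the sum in adult PBS culture 2 and 42.1% in adult LPS culture 2. Without Mertk, these sums were 45.25 and 50.75 CPM. The group means were 2266 ± 2714 CPM (SD, n = 3) in embryonic PBS, 3026 ± 2633 CPM in embryonic LPS, 163.4 ± 120.5 CPM in adult PBS and 187.7 ± 153.1 CPM in adult LPS. Every embryonic library lay above every adult library, but the lowest embryonic PBS library was only 1.75 times the highest adult PBS library, while the means differed 13.9-fold. As a share of all gene counts, the list made up 0.0537% to 0.593% in embryonic libraries and 0.00949% to 0.0344% in adult libraries. In such bulk samples, fewer cells of a type and less RNA per cell cannot be told apart.

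**Figure D1:**
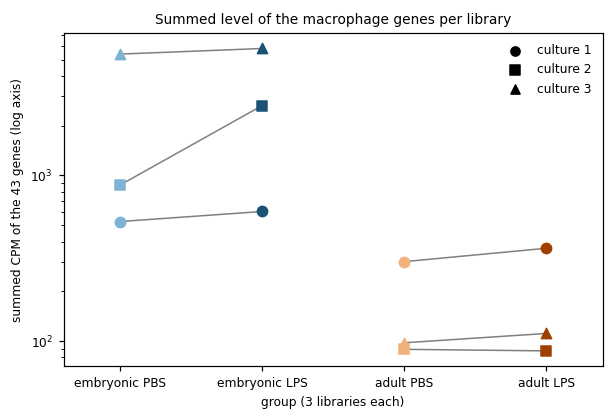
Summed CPM of the 43 genes in each library (log axis) by group, with lines that join the LPS and PBS libraries of the same stage and number. Embryonic culture 3 (triangles) is highest under both treatments at 5394 and 5830 CPM, adult culture 1 (circles) is the highest adult culture at 302.5 and 364.0 CPM, and the steep line is embryonic culture 2, from 877.6 to 2641 CPM.

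The order of the cultures was shared by nearly all genes of the list. Among the 39 tested, 38 were highest in culture 3 of the embryonic PBS libraries (37.2% of the 13038 tested genes were) and 36 in culture 3 of the embryonic LPS libraries (32.9% of tested genes). In adults, 35 were highest in culture 1 with PBS (37% of tested genes) and 38 with LPS (38.2% of tested genes). The median gene of the list differed 10.3-fold between the highest and the lowest embryonic PBS culture and 7.75-fold between the adult PBS cultures. Over all tested genes these medians were 1.47-fold and 1.28-fold. The exceptions were Ppbp, a platelet-type chemokine that was highest in embryonic culture 1, Mrc1 and Mertk in embryonic LPS libraries, Mertk in adult libraries, P2ry6 and Ppbp in adult PBS libraries, and Timd4, which held no count in any adult PBS library.

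**Figure D2:**
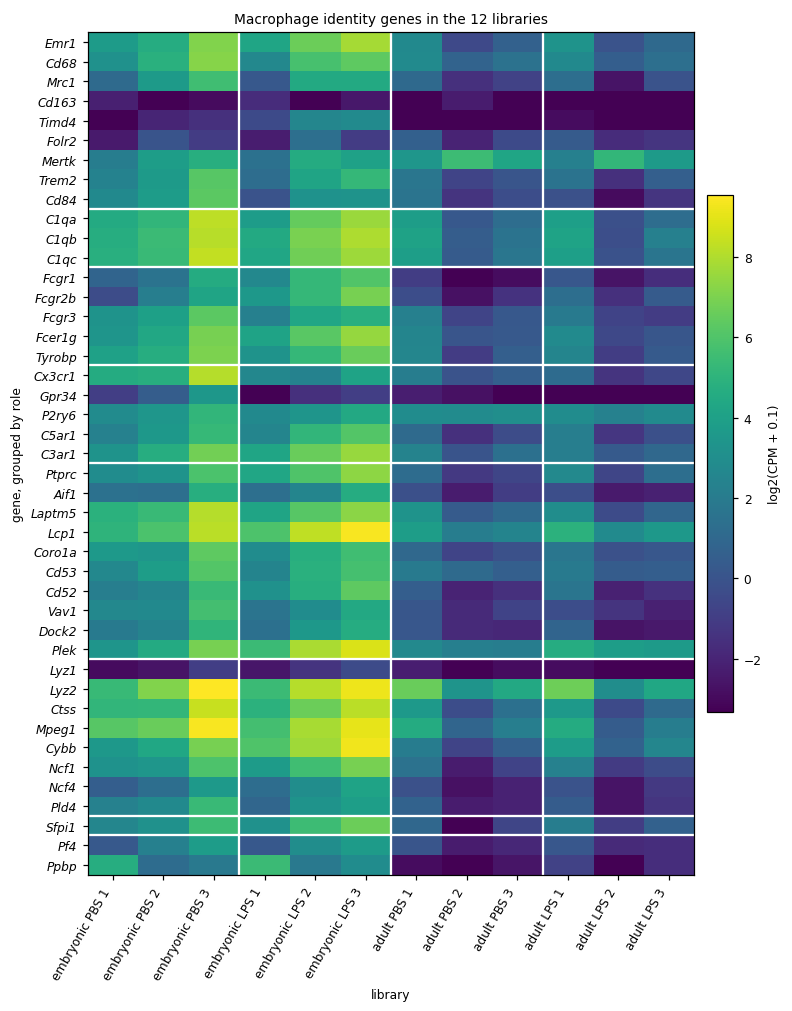
Level of each of the 43 genes (rows, grouped by role between white lines) in each of the 12 libraries (columns), as log2(CPM + 0.1). The columns of embryonic culture 3 are bright throughout under PBS and LPS, the 6 adult columns are darker for most genes, with Lyz2, Mertk, P2ry6, Lcp1 and Plek among the brighter ones and culture 1 the brightest of the 3, and Timd4, Fcgr2b and Cybb brighten between embryonic PBS and LPS while Cx3cr1 and Cd84 darken.

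Per kilobase of exon, the highest mean levels in embryonic PBS libraries were those of Lyz2, macrophage lysozyme, at 232.6 CPM per kb, C1qa at 118.1 CPM per kb and C1qb at 108.7 CPM per kb. Lyz2 also had the highest level per length in the other 3 groups. In individual embryonic PBS libraries Lyz2 stood at 40.9, 136.3 and 740.9 CPM and C1qb at 26.1, 43.2 and 285.3 CPM, both highest in culture 3. At the other end, Cd163, the haemoglobin scavenger receptor, never exceeded 0.210 CPM. Lyz1, the lysozyme of Paneth cells, never exceeded 0.660 CPM, and since it is nearly identical to Lyz2 its few counts are uncertain. Fcgr3 and Fcgr2b, whose products share much of their extracellular sequence, may also have reads in common. Only uniquely mapped reads were kept, so reads that matched both genes equally would be missing from both counts.

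Promoter sequences, the 250 bases before the annotated start of a gene in RefSeq (GRCm38.p6), were matched for 35 of the 43 genes. The genes without an entry were Emr1, C1qa, Tyrobp, Gpr34, P2ry6, Cd52, Ncf4 and Spi1. The letters GAGGAAG, a purine-rich core of the kind that PU.1 binds, were found on either strand in 9 of the 35 (25.7%) and in 10.6% of all 32851 promoters of the same length. The first share counts genes, some of which (such as Fcgr3) had an additional annotated start, and the other counts promoters, so they differ in unit. The 9 were Fcgr3, Mrc1, Fcgr1, Laptm5, C1qc, Pf4, Dock2, Trem2 and Vav1. A match is a description of the sequence and not a binding site, and none of the factors was measured at these sites. The promoters of 3 of them, printed here with the motif in capitals (GAGGAAG, or CTTCCTC where it lies on the opposite strand), stand for members that moved differently with LPS: Fcgr1, the high-affinity IgG receptor, was higher with LPS in 3 of 3 embryonic pairs, while C1qc, a complement C1q chain, and Vav1, a leukocyte guanine nucleotide exchange factor, were lower in 2 of 3.
The Fcgr1 promoter lies at chr3:96293970-96294219 on the minus strand, the C1qc promoter at chr4:136892915-136893164 on the minus strand and the Vav1 promoter at chr17:57278850-57279099 on the plus strand, each written 5′ to 3′ in the sense of the gene.
Fcgr1: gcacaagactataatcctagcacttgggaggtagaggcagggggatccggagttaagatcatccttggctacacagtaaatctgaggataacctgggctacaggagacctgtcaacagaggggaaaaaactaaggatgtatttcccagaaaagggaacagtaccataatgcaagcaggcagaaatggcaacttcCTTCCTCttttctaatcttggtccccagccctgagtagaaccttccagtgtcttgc
C1qc: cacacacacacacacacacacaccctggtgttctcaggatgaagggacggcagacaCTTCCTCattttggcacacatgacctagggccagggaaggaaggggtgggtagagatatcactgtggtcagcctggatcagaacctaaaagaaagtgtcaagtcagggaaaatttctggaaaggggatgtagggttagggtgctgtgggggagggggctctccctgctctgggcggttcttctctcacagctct
Vav1: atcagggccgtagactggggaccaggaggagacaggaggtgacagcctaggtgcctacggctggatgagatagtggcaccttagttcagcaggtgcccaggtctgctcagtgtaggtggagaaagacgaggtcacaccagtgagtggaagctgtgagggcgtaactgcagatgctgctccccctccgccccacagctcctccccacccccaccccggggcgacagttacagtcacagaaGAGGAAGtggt

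The question of the stage comparison was how embryonic and adult stroma differ under the same treatment. Some of the 39 tested genes, among them Fcgr1 and Vav1, passed the filter on low counts only through embryonic libraries. Counts of higher genes and median fold changes over the 39 are therefore partly set by the filter, with either treatment. Of the genes not tested, Folr2 had a higher mean in adult PBS libraries (0.740 against 0.464 CPM), and Cd163, Gpr34 and Lyz1 in embryonic ones. With PBS, 38 of the 39 tested genes had a higher mean in embryonic than in adult libraries, with a median log2 fold change of 4.45 against 0.02 over all tested genes, and 34 of the 39 had no overlap between the 3 embryonic and the 3 adult libraries (12.5% of tested genes were higher without overlap). The test called 4 genes at 4-fold (quasi-likelihood test of edgeR, Benjamini-Hochberg adjusted p under 0.05 and a log2 fold change of 2 or more in size), and 0.92% of all tested genes. It called 0 lower (1.31% of tested genes), as did DESeq2 (2.22% of tested genes), and 0 were lower at an unadjusted p under 0.05 (9.68% of tested genes). At an unadjusted p under 0.05, 35 of the 39 were higher (10.1% of tested genes). DESeq2 called 34 of the 39 (3.11% of tested genes) and gave no adjusted p for Cx3cr1. Counts of DESeq2 calls in the other comparisons may likewise leave Cx3cr1 out.

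The 4 genes called were Cx3cr1, Coro1a, Vav1 and Ppbp. Cx3cr1, the fractalkine receptor of resident macrophages and microglia, stood at 23.8, 26.4 and 270.7 CPM in embryonic PBS cultures 1, 2 and 3 and at 4.32, 0.866 and 1.40 CPM in the adult ones, a log2 fold change of 5.59 ± 1.24 (SE; edgeR adjusted p = 0.036). Culture 3 was again the highest embryonic culture, and the 2 stages did not overlap. Coro1a, the actin-binding coronin of leukocytes, stood at 12.3, 10.5 and 80.9 CPM against 1.94, 0.529 and 0.818 CPM, a log2 fold change of 4.96 ± 1.09 (edgeR adjusted p = 0.036).
Vav1 stood at 6.32, 6.86 and 52.4 CPM in embryonic PBS libraries and at 0.989, 0.192 and 0.511 CPM in adult PBS libraries, and its log2 fold change was 5.24 ± 1.17 (edgeR adjusted p = 0.036). Ppbp, pro-platelet basic protein, stood at 25.5, 2.25 and 3.52 CPM in embryonic libraries. All 3 adult PBS libraries held at most 2 counts of Ppbp, so that its mean was at least 87.9-fold higher in embryonic libraries when the adult group was set to the floor of 3 counts per library (edgeR adjusted p = 0.036). Unlike the other 3 genes, Ppbp was highest in embryonic culture 1.

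These calls rested on every adult PBS library: 0 genes were called without adult PBS replicate 1, 2 or 3, and 0 without embryonic PBS replicate 1 or adult LPS replicate 3. Without embryonic PBS replicate 3, 1 gene was called, and without both libraries of embryonic culture 3, 2 genes. Without both libraries of embryonic culture 1, 9 genes were called.

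With LPS, 38 of the 39 genes again had a higher fitted level in embryonic libraries, with a median log2 fold change of 4.39 (0.02 over all tested genes), and 32 of the 39 did not overlap (13.4% of tested genes). The test called 8 at 4-fold (1.91% of tested genes) and 0 lower (1.04% of tested genes), and 0 were lower by DESeq2 (1.87% of tested genes) or at an unadjusted p under 0.05 (9.45% of tested genes). At an unadjusted p under 0.05, 36 were higher (12.6% of tested genes). The 8 were Timd4, Fcgr1, Fcgr2b, C3ar1, Lcp1, Vav1, Cybb and Ppbp. DESeq2 called 35 (3.97% of tested genes). The comparison with PBS shares no library with this one but shares the cultures, so the 2 are not independent. Without adult LPS replicate 1, 2 or 3, or embryonic LPS replicate 3, 0 genes were called, without embryonic LPS replicate 2 and without adult PBS replicate 1, 3, without adult PBS replicate 2, 2, without adult PBS replicate 3, 1, and without embryonic PBS replicate 3, 14. Leaving out both libraries of embryonic culture 3 left 3 calls, leaving out embryonic culture 1 gave 13, and leaving out any adult culture gave 0.

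Fcgr1 stood at 6.27, 37.3 and 66.4 CPM in embryonic LPS cultures 1, 2 and 3 and at 1.04, 0.0614 and 0.216 CPM in the adult ones (log2 fold change 6.35 ± 1.52, edgeR adjusted p = 0.041). Cybb, the catalytic gp91 chain of the phagocyte oxidase, stood at 62.8, 205.9 and 611.8 CPM against 13.9, 1.57 and 5.83 CPM (5.37 ± 1.31, edgeR adjusted p = 0.045). Lcp1, the leukocyte actin bundler L-plastin, stood at 62.1, 317.6 and 680.0 CPM against 31.1, 6.91 and 11.5 CPM (4.42 ± 1.12, edgeR adjusted p = 0.0497). In each of the 3 genes the lowest embryonic library lay above the highest adult library. Fcgr2b, at 11.4, 38.1 and 120.0 CPM against 2.41, 0.246 and 1.21 CPM, had a log2 fold change of 5.45 ± 1.37 (edgeR adjusted p = 0.049). C3ar1, the C3a receptor, stood at 18.5, 95.3 and 188.6 CPM against 4.39, 1.17 and 1.94 CPM (5.33 ± 1.19, edgeR adjusted p = 0.033). Vav1 stood at 3.01, 7.52 and 21.8 CPM against 0.716, 0.276 and 0.130 CPM (4.80 ± 1.16, edgeR adjusted p = 0.043). Again no adult library of these genes reached an embryonic one. Ppbp stood at 43.5, 3.55 and 7.53 CPM against 0.488, 0 and 0.216 CPM (6.26 ± 1.48, edgeR adjusted p = 0.040), highest in culture 1 at both stages. Timd4, a phosphatidylserine receptor of resident macrophages, held at most 1 count in any adult LPS library and was at least 41.9-fold higher in embryonic libraries (edgeR adjusted p = 0.025). It passed the filter on low counts only through the embryonic LPS libraries, which limits this p-value.

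**Figure D3:**
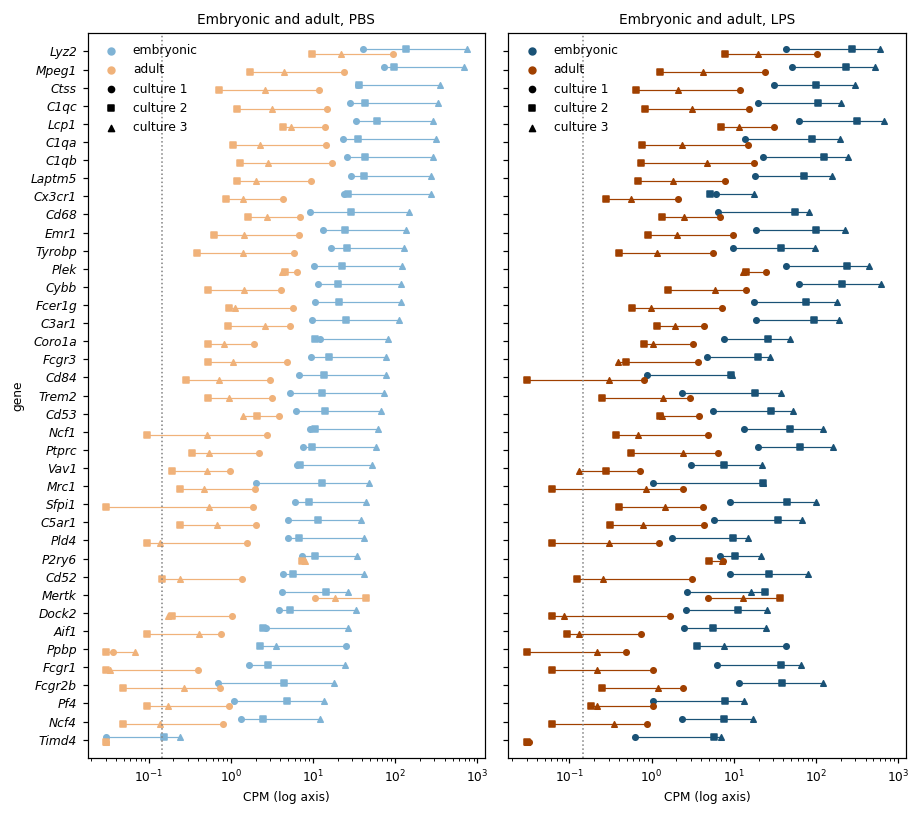
CPM of the 39 tested genes (log axis) in the 3 embryonic and the 3 adult libraries with PBS (left) and with LPS (right), with a line over the range of each group and the dotted line at the highest floor of 3 counts (0.144 CPM). Values under 0.03 CPM are drawn at 0.03. Blue embryonic ranges lie to the right of orange adult ranges for 34 genes with PBS and 32 with LPS, and Mertk and P2ry6 are the clear exceptions.

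The members that did not follow the stage difference were few. Mertk, a receptor tyrosine kinase for the uptake of dying cells, was the only tested gene with a lower mean in embryonic libraries, at 4.24, 14.2 and 26.6 CPM in embryonic PBS cultures 1, 2 and 3 and 10.5, 44.3 and 18.6 CPM in adult ones (log2 fold change -0.71 ± 0.94, edgeR adjusted p = 0.76). Its highest level in any library was that of adult PBS culture 2, where endothelial genes were also highest. The 5 endothelial genes summed to 19.4, 1747 and 364.5 CPM in adult PBS cultures 1, 2 and 3 and to between 8.3 and 34.6 CPM in the 6 embryonic libraries. Pecam1 (CD31) alone stood at 0.915, 429.9 and 79.0 CPM in the adult PBS libraries, and their part in the Mertk level was not tested.
P2ry6, a nucleotide receptor, was nearly level across adult libraries, from 5.00 to 7.97 CPM, and reached 34.8 CPM in embryonic PBS culture 3. Lyz2 overlapped between the stages, with adult culture 1 at 95.4 CPM with PBS, above the 40.9 CPM of embryonic PBS culture 1. Folr2, a folate receptor of resident macrophages, also had its highest PBS level in an adult library, at 1.43 CPM in adult culture 1 against 0.0903 to 0.914 CPM in embryonic PBS libraries.

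The comparison of LPS with PBS asked which of these genes respond within a stage. In embryonic stroma the test without regard to culture called 0 of the 39 genes higher and 0 lower at 4-fold, while it called 1.87% of all tested genes higher and 0.0537% lower. At an unadjusted p under 0.05, 4 were higher (Timd4, Fcgr2b, Plek and Cybb; 8.1% of tested genes) and 1 was lower (Cx3cr1; 2.69% of tested genes), and DESeq2 called 1 higher (Timd4; 2.62% of tested genes) and 0 lower (0.284% of tested genes). With the culture number as a block, which compares each LPS library with the PBS library of the same number, 5 genes rose at 4-fold (3.02% of tested genes) and 2 fell (0.383% of tested genes). The 5 were Timd4, Fcgr1, Fcgr2b, Plek and Cybb, and the 2 were Cd84 and Cx3cr1. Without the fold threshold the block fit called 16 higher (9.43% of tested genes) and the same 2 lower (3.12% of tested genes). The same 16 genes were higher in 3 of 3 embryonic pairs (23% of tested genes were), and 3 genes were lower in 3 of 3 (Cd84, Cx3cr1 and P2ry6; 19.1% of tested genes).

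Several of these counts depended on culture 2. The median log2 difference of the 39 genes between LPS and PBS was -0.14 in embryonic pair 1, 1.31 in pair 2 and -0.25 in pair 3, and that of all tested genes lay between -0.01 and 0.03. In pair 2, 36 of the 39 genes were higher with LPS, and in pairs 1 and 3 it was 17 and 16. With both libraries of embryonic culture 2 left out, the block fit called 3 genes higher at 4-fold (Timd4, Fcgr2b and Cybb; 3.21% of tested genes) and the same 2 lower (0.642% of tested genes). Without the fold threshold it then called 14 higher (10.1% of tested genes) and 14 lower (4.89% of tested genes). The 12 further genes called lower in cultures 1 and 3 were Cd68, Mrc1, Trem2, C1qa, C1qc, Fcgr3, Tyrobp, Laptm5, Coro1a, Vav1, Mpeg1 and Pld4. This fit was chosen after the values were seen. It leaves out the pair in which 36 of the 39 genes were higher, which favours calls of lower genes. Its adjusted p-values for lower genes, here and below, are therefore descriptions and not tests of a fall. Leaving out culture 1 instead gave 14 of the 39 higher (8.15% of tested genes) and 1 lower (2.38%), of which 6 and 1 at 4-fold (3.25% and 0.472%). Leaving out culture 3 gave 13 higher (6.42%) and 1 lower (1.56%), of which 6 and 1 at 4-fold (2.62% and 0.236%). Leaving out an adult culture gave 11 to 13 higher and 1 or 2 lower (6.32% to 7.52% and 1.89% to 2.2% of tested genes), with 5 higher and 1 or 2 lower at 4-fold (2.92% to 2.98% and 0.333% to 0.364%). Of the 16 genes called higher with the block and no fold threshold, 10 passed in each of these 6 fits, as did Cx3cr1 among the 2 called lower. Emr1, C5ar1, Ncf1, Ncf4, Spi1, Ppbp and Cd84 each missed the threshold in at least 1 of them.

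**Figure D4:**
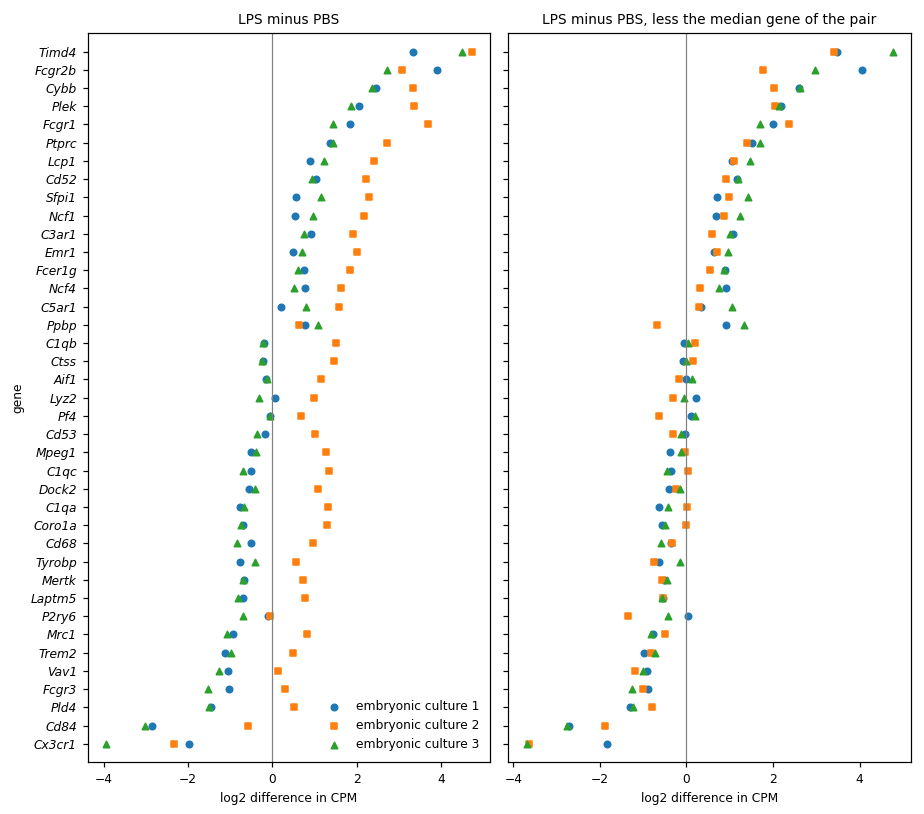
Log2 difference in CPM between the LPS and the PBS library of each embryonic culture for the 39 tested genes (left), and the same after subtraction of the median of these genes in each pair (right), sorted by the mean of the right panel. On the left, the squares of culture 2 lie to the right of the other 2 cultures for nearly every gene. On the right the 3 cultures lie closer together for most genes, with Timd4, Fcgr2b, Cybb, Plek and Fcgr1 at the top and Cd84 and Cx3cr1 at the bottom.

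Relative to the median of the list in the same pair, many genes had similar values in the 3 embryonic cultures. Plek, a substrate of protein kinase C in leukocytes, lay 2.19, 2.06 and 2.13 log2 units above the median in pairs 1, 2 and 3. Emr1 lay 0.63, 0.71 and 0.96 above it and Ptprc 1.51, 1.41 and 1.70 above it. Laptm5, a lysosomal membrane protein of leukocytes, lay 0.55, 0.53 and 0.56 log2 units below the median, and Cd68 lay 0.36, 0.34 and 0.58 below it. Other genes differed more between pairs 1, 2 and 3. Relative to the median, Fcgr2b lay at 4.1, 1.8 and 3.0 log2 units and Cx3cr1 at -1.8, -3.6 and -3.7. Ppbp changed sign, at 0.91, -0.67 and 1.33. These values are descriptions, since the median is set by the same genes, and carry no test.

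Among surface identity and scavenging receptors (9 genes, 7 tested), Timd4 had the largest rise. In embryonic cultures 1, 2 and 3 it held 0, 5 and 8 counts with PBS and 18, 168 and 179 counts with LPS, or 0, 0.152 and 0.239 CPM against 0.630, 5.80 and 6.95 CPM. Each LPS library lay above each PBS library, and the log2 fold change was 5.08 ± 0.37 with the block (edgeR adjusted p = 5.97e-04) and 5.05 ± 1.15 without it (edgeR adjusted p = 0.067). With PBS it was near the floor, and in adult libraries it held at most 1 count under either treatment. Timd4 thus passed the filter on low counts only through embryonic LPS libraries, the group in which it was high, and its adjusted p-values carry this limit.
Emr1 rose from 13.3, 24.5 and 137.3 CPM to 18.7, 99.3 and 224.3 CPM, a log2 fold change of 1.08 ± 0.26 with the block (edgeR adjusted p = 0.031) and 0.97 ± 1.19 without it (edgeR adjusted p = 0.98). The groups overlapped, since culture 3 with PBS lay above cultures 1 and 2 with LPS. Without culture 2 its log2 fold change was 0.61 ± 0.09 (edgeR adjusted p = 0.0048), and it did not pass when adult culture 1, 2 or 3 was left out (edgeR adjusted p = 0.066, 0.056 and 0.063).
Cd84, a SLAM-family receptor, had the largest fall of this group. It stood at 6.77, 13.8 and 77.8 CPM with PBS and 0.876, 9.32 and 9.58 CPM with LPS, lower in 3 of 3 pairs and least so in culture 2. Its log2 fold change was -2.09 ± 0.46 with the block (edgeR adjusted p = 0.023) and -2.31 ± 1.20 without it (edgeR adjusted p = 0.59). With the block it did not pass without embryonic culture 1 (-1.82 ± 0.54, edgeR adjusted p = 0.090), embryonic culture 3 (-1.52 ± 0.45, edgeR adjusted p = 0.094) or adult culture 1 (-2.10 ± 0.51, edgeR adjusted p = 0.054).
Cd68 stood at 9.09, 28.7 and 147.6 CPM with PBS and at 6.41, 56.1 and 82.6 CPM with LPS, lower in cultures 1 and 3 and higher in culture 2. Its log2 fold change was -0.12 ± 0.30 with the block (edgeR adjusted p = 0.86) and -0.70 ± 0.12 when culture 2 was left out (edgeR adjusted p = 0.0080). Mrc1, the mannose receptor, and Trem2, a lipid-sensing receptor that signals through Tyrobp, went the same way, with log2 fold changes of -1.03 ± 0.24 (edgeR adjusted p = 0.029) and -1.03 ± 0.19 (edgeR adjusted p = 0.012) without culture 2 and -0.32 ± 0.38 and -0.50 ± 0.31 with it. Mertk did not pass in either fit. Folr2, which was not tested, stood at 0.0903, 0.914 and 0.388 CPM with PBS and at 0.105, 2.48 and 0.388 CPM with LPS, and Cd163 was at or near the floor throughout.

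The 3 chains of complement C1q, which tags dying cells and immune complexes for uptake, showed no change that passed the block fit. C1qa stood at 23.3, 35.3 and 309.8 CPM with PBS and at 13.6, 89.1 and 193.9 CPM with LPS. C1qb stood at 26.1, 43.2 and 285.3 CPM against 22.7, 123.8 and 246.2 CPM. Both were lower with LPS in cultures 1 and 3 and higher in culture 2. The block fit gave log2 fold changes of -0.05 ± 0.37 for C1qa, 0.36 ± 0.33 for C1qb and 0.03 ± 0.35 for C1qc (edgeR adjusted p = 0.96, 0.56 and 0.97). Without culture 2 they were -0.72 ± 0.10 for C1qa (edgeR adjusted p = 0.0030), -0.21 ± 0.17 for C1qb (edgeR adjusted p = 0.50) and -0.61 ± 0.10 for C1qc (edgeR adjusted p = 0.0081).

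Of the 5 Fc receptors and adaptors, 3 rose with the block (Fcgr2b, Fcgr1 and Fcer1g). Fcgr2b, the inhibitory IgG receptor, stood at 0.693, 4.48 and 18.2 CPM with PBS and at 11.4, 38.1 and 120.0 CPM with LPS in embryonic cultures 1, 2 and 3. It was higher in 3 of 3 pairs, while culture 3 with PBS lay above culture 1 with LPS. The log2 fold change was 3.13 ± 0.21 with the block (edgeR adjusted p = 4.4e-05) and 2.86 ± 1.20 without it (edgeR adjusted p = 0.40).
Fcgr1 stood at 1.69, 2.83 and 24.3 CPM with PBS and at 6.27, 37.3 and 66.4 CPM with LPS, with a log2 fold change of 2.31 ± 0.39 with the block (edgeR adjusted p = 0.0078) and 1.62 ± 0.18 without culture 2 (edgeR adjusted p = 0.0012), which is under 4-fold. Fcer1g, the signalling gamma chain that Fcgr1 needs at the surface, had a log2 fold change of 1.07 ± 0.24 with the block (edgeR adjusted p = 0.023). Fcgr3, the low-affinity activating IgG receptor, stood at 9.58, 15.9 and 78.2 CPM with PBS and at 4.69, 19.6 and 27.2 CPM with LPS. It had a log2 fold change of -0.75 ± 0.32 (edgeR adjusted p = 0.18), or -1.31 ± 0.19 without culture 2 (edgeR adjusted p = 0.0048). Tyrobp, the adaptor DAP12, had a log2 fold change of -0.19 ± 0.21 (edgeR adjusted p = 0.64), or -0.57 ± 0.12 without culture 2 (edgeR adjusted p = 0.0185).

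The 5 G protein-coupled receptors split in direction. Cx3cr1 had the largest fall of the tested genes of the list: 23.8, 26.4 and 270.7 CPM with PBS against 5.99, 5.17 and 17.5 CPM with LPS in embryonic cultures 1, 2 and 3. It was the only tested member in which every LPS library lay below every PBS library (4.02% of tested genes), and in culture 2 it fell although nearly all other members were higher. The log2 fold change was -2.82 ± 0.35 with the block (edgeR adjusted p = 0.0015) and -3.48 ± 1.11 without it (edgeR adjusted p = 0.18). Gpr34, a lysophosphatidylserine receptor that was not tested, stood at 0.421, 1.28 and 11.2 CPM with PBS and at 0, 0.241 and 0.427 CPM with LPS, also lower in 3 of 3 pairs.
C5ar1 and C3ar1, the receptors for the complement fragments C5a and C3a, rose by 0.91 ± 0.24 and 1.20 ± 0.21 on the log2 scale with the block (edgeR adjusted p = 0.046 and 0.0088). C3ar1 also passed without culture 2 (0.84 ± 0.12, edgeR adjusted p = 0.0046) and C5ar1 did not (0.55 ± 0.19, edgeR adjusted p = 0.11), nor did C5ar1 without culture 3 (0.94 ± 0.30, edgeR adjusted p = 0.12) or without any adult culture (edgeR adjusted p = 0.071 to 0.078). P2ry6 had a log2 fold change of -0.30 ± 0.16 (edgeR adjusted p = 0.29).

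Pan-leukocyte signalling and cytoskeletal genes (10 genes, all tested) held 4 that rose with the block, Plek, Ptprc, Lcp1 and Cd52, and 0 that fell. Plek stood at 10.3, 22.8 and 121.0 CPM with PBS and at 42.9, 236.2 and 444.1 CPM with LPS, with a log2 fold change of 2.43 ± 0.27 with the block (edgeR adjusted p = 8.4e-04) and 2.23 ± 0.92 without it (edgeR adjusted p = 0.38). Ptprc stood at 7.53, 9.75 and 59.1 CPM against 19.5, 64.4 and 161.5 CPM (1.84 ± 0.26 with the block, edgeR adjusted p = 0.0028). Both genes were higher in 3 of 3 pairs, with the largest step in culture 2. Without culture 2, Plek had a log2 fold change of 1.96 ± 0.10 (edgeR adjusted p = 3.3e-05) and Ptprc of 1.42 ± 0.14 (edgeR adjusted p = 8.1e-04).
Lcp1 rose by 1.51 ± 0.25 (edgeR adjusted p = 0.0074) and Cd52, a small glycoprotein of the leukocyte surface, by 1.40 ± 0.25 (edgeR adjusted p = 0.010), both on the log2 scale and with the block. Aif1 (the calcium-binding protein IBA1), Laptm5, Coro1a, Cd53 (a tetraspanin), Vav1 and Dock2 (an activator of the GTPase Rac) had log2 fold changes between -0.75 and 0.27 with the block, and 0 of the 6 passed. Laptm5, Coro1a and Vav1 passed as lower when culture 2 was left out, at -0.75 ± 0.10, -0.73 ± 0.11 and -1.18 ± 0.21 (edgeR adjusted p = 0.0035, 0.0053 and 0.010).

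Among the 8 lysosomal, antimicrobial and oxidase genes (7 tested), the 3 oxidase subunits passed as higher with the block and the others did not pass. Cybb stood at 11.4, 20.3 and 117.8 CPM with PBS and at 62.8, 205.9 and 611.8 CPM with LPS, higher in 3 of 3 pairs but overlapping, with a log2 fold change of 2.72 ± 0.18 with the block (edgeR adjusted p = 4.8e-05) and 2.56 ± 1.14 without it (edgeR adjusted p = 0.46). Its differences in pairs 1, 2 and 3 were 2.45, 3.34 and 2.38 on the log2 scale. Ncf1 and Ncf4, cytosolic subunits of the same oxidase, rose by 1.24 ± 0.27 and 0.97 ± 0.25 on the log2 scale (edgeR adjusted p = 0.024 and 0.041). Ncf1 did not pass without adult culture 1 (edgeR adjusted p = 0.054). Ncf4 passed only when embryonic culture 3 was the one left out, with a log2 fold change of 0.62 ± 0.21 without embryonic culture 2 (edgeR adjusted p = 0.10), 1.04 ± 0.30 without embryonic culture 1 (edgeR adjusted p = 0.086), and edgeR adjusted p from 0.062 to 0.070 without an adult culture.
Lyz2 stood at 40.9, 136.3 and 740.9 CPM with PBS and at 43.1, 271.5 and 600.5 CPM with LPS, and its log2 fold change was 0.25 ± 0.22 with the block (edgeR adjusted p = 0.52) and -0.01 ± 1.30 without it. Ctss, cathepsin S, and Mpeg1, the pore-forming perforin-2, had log2 fold changes of 0.32 ± 0.30 and 0.12 ± 0.31, and Pld4, a lysosomal exonuclease, of -0.81 ± 0.39, none of which passed (edgeR adjusted p = 0.57, 0.87 and 0.23). Without culture 2, Mpeg1 (-0.45 ± 0.09) and Pld4 (-1.49 ± 0.19) passed as lower (edgeR adjusted p = 0.017 and 0.0027).

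The transcription factor gene Spi1 stood at 5.96, 8.93 and 44.5 CPM with PBS and at 8.90, 44.3 and 99.6 CPM with LPS. It was higher in 3 of 3 pairs, with a log2 fold change of 1.37 ± 0.31 with the block (edgeR adjusted p = 0.025) and 0.91 ± 0.22 without culture 2 (edgeR adjusted p = 0.036). It did not pass without embryonic culture 3 (1.47 ± 0.38, edgeR adjusted p = 0.059) or adult culture 1 or 3 (edgeR adjusted p = 0.054 and 0.057). Of the 2 platelet-type chemokines, Ppbp rose by 0.84 ± 0.17 on the log2 scale with the block (edgeR adjusted p = 0.019), from 25.5, 2.25 and 3.52 CPM to 43.5, 3.55 and 7.53 CPM. Ppbp did not pass without embryonic culture 1 (0.89 ± 0.29, edgeR adjusted p = 0.13) or 3 (0.70 ± 0.17, edgeR adjusted p = 0.057). Pf4, platelet factor 4, had a log2 fold change of 0.22 ± 0.20 (edgeR adjusted p = 0.56). The platelet genes Gp9, Gp1ba and Gp6 were at or near 0 in all 12 libraries, at most 0.144 CPM, while Itga2b and Gp1bb reached 2.15 and 5.14 CPM.

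In adult stroma the test called 0 of the 39 genes without the block (0.422% of tested genes higher, 0% lower), and 0 had an unadjusted p under 0.05 in edgeR (4.49% higher, 1.08% lower). DESeq2 also called 0 (1.29% higher, 0.0153% lower), with Plek higher at an unadjusted p under 0.05 (4.94% of tested genes). With the block 0 passed at 4-fold (1.6% higher, 0.0153% lower) and 3 rose at an adjusted p under 0.05, namely Fcgr2b, Plek and Cybb (4.69% of tested genes higher). At an unadjusted p under 0.05 the block fit had 7 higher (10.5% of tested genes) and 0 lower (7.39% of tested genes). All 3 also rose in embryonic stroma with the block.
Cybb stood at 4.10, 0.529 and 1.43 CPM with PBS and at 13.9, 1.57 and 5.83 CPM with LPS in adult cultures 1, 2 and 3 (log2 fold change 1.82 ± 0.25 with the block, edgeR adjusted p = 0.0051). Plek stood at 6.44, 4.62 and 4.22 CPM against 24.5, 14.1 and 12.9 CPM (1.73 ± 0.29, edgeR adjusted p = 0.013), and was the only member without overlap between adult LPS and PBS libraries (9.1% of tested genes). Fcgr2b stood at 0.732, 0.0481 and 0.273 CPM against 2.41, 0.246 and 1.21 CPM (1.88 ± 0.38, edgeR adjusted p = 0.027), so that the PBS library of culture 2 was below the floor. Not all of these calls held with an adult culture left out. Without adult culture 1, 0 of the 39 passed (1.88% of tested genes higher), and without adult culture 2 or 3 only Cybb passed (2.92% and 1.67%). With any culture left out, log2 fold changes stayed at 1.61 to 1.77 (Plek), 1.70 to 1.89 (Cybb) and 1.75 to 2.15 (Fcgr2b). Without embryonic culture 2, which changes the shared estimate of the spread, 7 were higher (Emr1, Fcgr2b, Ptprc, Lcp1, Plek, Cybb and Spi1; 5.86% of tested genes) and Cd84 was lower (2.5%). Without embryonic culture 3, 5 were higher (Fcgr2b, Ptprc, Plek, Cybb and Ppbp; 6.53%) and Cx3cr1 was lower (2.93%).

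Of the 39 genes, 13 were higher with LPS in 3 of 3 adult pairs (24% of tested genes) and 10 were lower (25.1% of tested genes). Emr1 was among the first, at 6.70, 0.625 and 1.47 CPM with PBS and 9.63, 0.890 and 2.03 CPM with LPS (0.51 ± 0.37 on the log2 scale, edgeR adjusted p = 0.57). Ptprc was another, at 2.23, 0.337 and 0.545 CPM against 6.44, 0.553 and 2.38 CPM (1.60 ± 0.41, edgeR adjusted p = 0.065). Cx3cr1 and Cd84 were lower in all 3. Cx3cr1 stood at 4.32, 0.866 and 1.40 CPM against 2.12, 0.276 and 0.561 CPM (-1.20 ± 0.53, edgeR adjusted p = 0.29). Cd84 had a log2 fold change of -1.80 ± 0.78 (edgeR adjusted p = 0.28), with 6 counts with PBS and 1 with LPS in adult culture 2. The median log2 difference of the list was 0.12, -0.09 and 0.03 in the 3 adult pairs.

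**Figure D5:**
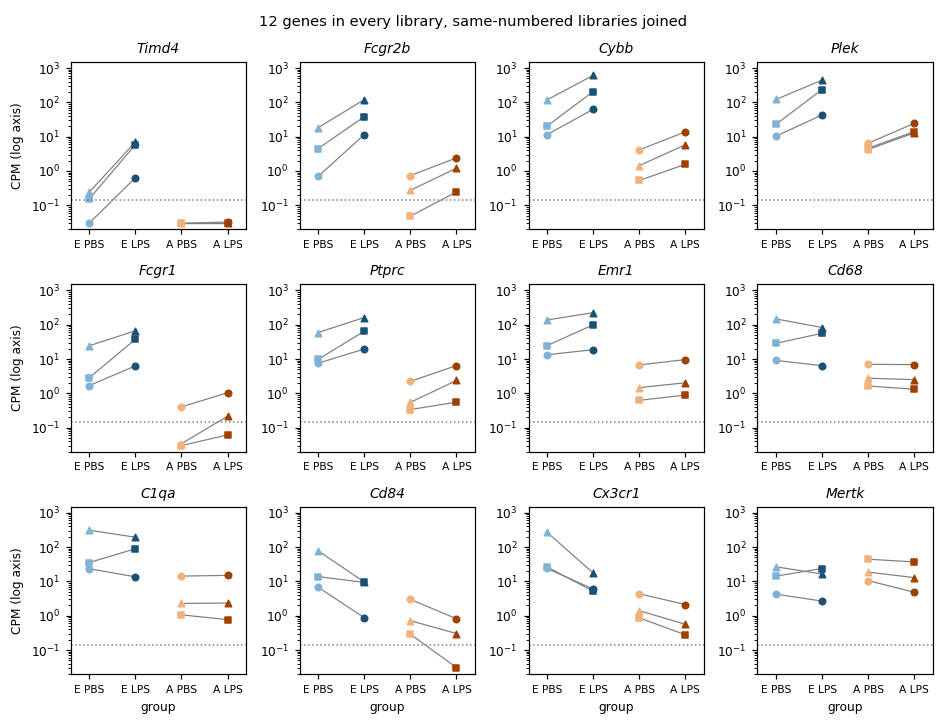
CPM (log axis) of 12 genes in every library, with lines that join LPS and PBS libraries of the same stage (E, embryonic; A, adult) and number (circle 1, square 2, triangle 3). The dotted line is the highest floor of 3 counts (0.144 CPM), and values under 0.03 CPM are drawn at 0.03. Cybb, Plek, Fcgr2b and Ptprc slope upward in all 6 pairs, Cx3cr1 and Cd84 slope downward in all 6, and Cd68 slopes upward only in embryonic culture 2.

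The test of the difference itself, the interaction of stage and LPS, called 0 of the 39 genes without the block (0% of tested genes in either direction) or with it (0.798% higher and 0.046% lower). At an unadjusted p under 0.05, 0 genes differed without the block (1.83% of tested genes higher, 0.422% lower), and with it the embryonic response was higher for Fcgr2b, Fcer1g, C3ar1 and Cybb (6.23% of tested genes) and lower for Cx3cr1 and Ppbp (2.69%). DESeq2 called 0 (0.169% higher, 0.023% lower), also at an unadjusted p under 0.05. For Fcgr2b the embryonic log2 fold change exceeded the adult one by 1.25 ± 0.47 (edgeR adjusted p = 0.47), and for Cx3cr1 the interaction was -1.62 ± 0.65 (edgeR adjusted p = 0.50). The largest difference in size was that of Timd4, 3.21 on the log2 scale with an SE of 12.6 and at most 1 count in any adult library.

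Other genes of macrophages and monocytes, 16 in all with 13 tested, were read beside the list. They did not share 1 pattern. Csf1r, the receptor for the growth factor of macrophages, was at 35.7, 46.5 and 285.5 CPM in embryonic PBS and 17.8, 2.12 and 10.4 CPM in adult PBS cultures 1, 2 and 3. Maf, a transcription factor that other cell types also express, was higher in adult PBS libraries, at 56.2, 50.6 and 45.5 CPM against 11.1, 19.0 and 41.6 CPM in embryonic ones. Stab1, a scavenger receptor that endothelial cells also express, stood at 9.34, 67.0 and 34.8 CPM in adult and 19.2, 54.8 and 262.0 CPM in embryonic PBS cultures, so that the stages overlapped and adult culture 2 was the highest adult one. With embryonic LPS and the block, 4 of the 13 passed as higher (Marco, Cd86, Msr1 and Maf). Marco, a scavenger receptor for bacteria, went from 0, 0.213 and 0.179 CPM to 4.59, 14.7 and 48.6 CPM, a log2 fold change of 7.31 (edgeR adjusted p = 2.3e-04), and was the only one called at 4-fold without the block (7.39, edgeR adjusted p = 0.022). Marco passed the filter on low counts only through embryonic LPS libraries, which limits its p-values. With adult LPS 0 of the 13 passed in either fit. In the stage comparison without the block, Csf2rb was called higher in embryonic libraries with PBS (3.65, edgeR adjusted p = 0.048), and Marco (8.02, edgeR adjusted p = 0.020) and Cd86 (5.28, edgeR adjusted p = 0.046) with LPS.

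Many but not all genes that define other leukocytes were at the floor. The T cell genes Cd3d, Cd3e, Cd3g, Cd8a and Zap70, the B cell gene Pax5, the NK cell genes Ncr1 and Gzma and the neutrophil genes S100a9, Mpo and Elane were at most at 3 counts in every library. Of 8 dendritic cell genes 4 were at this floor, as were 4 of 6 mast cell genes, 3 of 4 erythroid genes and 5 of 5 Paneth cell genes. Only uniquely mapped reads were kept, so 0 counts of a gene with near-identical copies do not show its absence. Others were above the floor. Ms4a2, a chain of the IgE receptor, lay between 2.64 and 30.8 CPM, highest in embryonic PBS culture 2 and, among adult libraries, in culture 1. Of the dendritic cell genes, Zbtb46 lay between 3.52 and 19.0 CPM, highest in adult LPS culture 1. Itgax, the integrin CD11c that macrophages also express, lay between 0.0681 and 9.62 CPM, highest in embryonic PBS culture 3. The T cell kinase gene Lck reached 1.59 CPM and the NK cell gene Nkg7 1.33 CPM. The neutrophil list summed to at most 0.529 CPM in any library. Cd4, which mouse macrophages can also express, reached 3.32 CPM in embryonic PBS culture 3. Of 5 epithelial genes, Krt20 reached 59.1 CPM and the others at most 1.10 CPM. Their part in the differences above was not tested.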

How the data were processed

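Poly(A) RNA of 12 libraries of cultured mouse intestinal stroma (3 in each of 4 groups) was read as 75 bp single-end sequences. The authors aligned the reads with STAR to GRCm38.p6 (mm10), kept uniquely mapped reads and deposited raw counts per gene, 1 file per library, with 18850224 to 32672370 counts in genes. Counts on the stranded setting were used, and the number of unused per-sample columns was 0. Groups and numbers came from the labels.

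Genes above 0.5 CPM in all libraries of at least 1 group were tested (13038 of 23329 listed; 18810 had a count). TMM scaling and the quasi-likelihood test of edgeR 4.0.16 (R 4.3.3, limma 3.58.1) were applied in 1 model of 4 groups over all 12 libraries, and p-values were adjusted by Benjamini-Hochberg over the tested genes. A call needed an adjusted p under 0.05 and a log2 fold change of 2 or more in size, and the interaction at an adjusted p under 0.05 alone. Values after ± are standard errors of log2 fold changes unless SD is stated. Log2 differences within pairs used a prior count of 2. The test was checked on simulated counts. No libraries were duplicates.

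Whether equal numbers pair LPS with PBS libraries was checked by the correlation over genes of deviations from the group means: 0.759, 0.784 and 0.710 for embryonic and 0.803, 0.850 and 0.610 for adult numbers 1, 2 and 3. The numbers were therefore used as a block within each stage, as an alternative to the fit without it. The study's methods describe the 3 cultures of each stage as independent. Without the block, p-values measure the spread between libraries of a group, and both libraries of a culture enter that estimate as if independent. With the block, they measure how much the differences between LPS and PBS vary between cultures, pooled over both stages.

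The 43 genes, the lists of other cell types and the tests were chosen with earlier results of these data known. Some genes of the other lists are not reported here. Given with every library were the 4 markers, the 3 genes with the highest level per length in embryonic PBS libraries, up to 8 called genes per direction in each comparison, and the largest rise and fall of each role with embryonic LPS. Alternatives were DESeq2 1.42.0, RLE factors, library totals, no filter, filterByExpr, counts on either strand, fits of 6 libraries, other thresholds and each library left out. Leaving out whole cultures, and the block without a fold threshold, were chosen after seeing the data. Tables were handled in Python 3.11.15 with pandas 2.3.3 and matplotlib 3.10.9.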

Additional observations from a re-analysis of the deposited data

How the results depend on the processing

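The numbers of genes of the list called were recomputed under each alternative, over the genes that passed the filter in it, so that Gpr34 enters, as lower with the block, when embryonic culture 1 is left out. In embryonic LPS the replicate block raised the genes called higher from 0 to 5 and those called lower from 0 to 2, DESeq2 called 1 higher, and the block with no fold threshold gave 16 higher and 2 lower. In adult LPS the block with no fold threshold gave 3 higher. The stage difference with PBS moved from 4 genes to 34 with DESeq2, to 0 with only the 6 libraries compared and to 0 at an adjusted p under 0.01. With LPS it moved from 8 to 35, 0 and 0 in the same settings. The cause of these moves was not tested. With 1 library or 1 culture left out, the stage difference ranged from 0 to 9 genes with PBS and from 0 to 14 with LPS, and embryonic LPS from 0 to 1 higher. With the block and 1 culture left out, embryonic LPS ranged from 3 to 6 higher and 1 to 2 lower, or 11, 12, 13 or 14 higher and 1 to 14 lower without the fold threshold. Adult LPS ranged from 0 to 1 higher, or 0 to 7 higher and 0 to 1 lower without the fold threshold, and the interaction from 0 to 1 lower. A replicate block across the stages, where equal numbers share only a number, gave 4 genes with PBS and 6 with LPS.

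Some embryonic LPS log2 fold changes of single genes turned sign. With 1 library left out Emr1 ranged from -0.043 to 2.60, Cd68 from -1.05 to 1.36, C1qa from -1.32 to 1.76, C1qb from -0.75 to 1.92 and Lyz2 from -1.02 to 1.79. With 1 culture left out Cd68 ranged from -0.82 to 0.68, C1qa from -0.68 to 0.76, C1qb from -0.21 to 1.03 and Lyz2 from -0.28 to 0.78. With the block as well, Cd68 ranged from -0.70 to 0.28 (0.050 without embryonic culture 1), C1qa from -0.72 to 0.31, C1qb from -0.21 to 0.66 and Lyz2 from -0.12 to 0.52 (0.34 without embryonic culture 1, 0.24 without adult culture 2 and 0.22 without adult culture 3). Lyz2 was at 0.25 with the block, and C1qb at -0.075 with library totals. Adult levels near the floor of 3 counts (0.0896 to 0.144 CPM) limit the adult values of several genes, among them Timd4, Fcgr1, Fcgr2b, Pld4 and Ppbp. Others were at or under this floor in single adult libraries. Spi1 held 0 counts in adult PBS culture 2, Cd84 held 1 count in adult LPS culture 2 and Vav1 held 3 counts in adult LPS culture 3.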
